A study of Mus musculus with 2 samples.

Results

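Plasmacytoid dendritic cells (pDCs) were described among liver cells of mice on HFCFD, a diet with much fat, cholesterol and fructose, profiled by droplet single-cell RNA sequencing. A barcode was taken as a pDC when it held at least 1000 UMIs, at most 25% of UMIs from mitochondrial genes, at least 2 UMIs of Siglech, at least 1 UMI summed over Ccr9, Klk1, Cox6a2 and Bst2, under 5 UMIs summed over C1qa, C1qb and C1qc, and 0 UMIs of Cd3e. UMIs (unique molecular identifiers) let each captured RNA count 1 time however often PCR copied it. This rule found 255 pDCs among 32316 barcodes, of which 12996 passed the limits on UMIs and on mitochondrial share. The cells were chosen by their measured counts of Siglech and of the other genes in the rule, so the levels of these genes are given as a description only.

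Per the labels, 1 of the 2 samples was a Cebp KO liver and the other a Cebp WT liver, both from mice given 40% HFCFD for 2 weeks. In the study's mice a floxed Cebpa gene is deleted by Cre under the albumin promoter, which is active in hepatocytes, on a C57BL/6N background, and male animals were used; pDCs themselves are not a target of this Cre. Each fresh liver was perfused, digested and cleaned on Percoll, and its cells were loaded on a capture lane of their own. Barcodes of the joined matrix end in suffix 1 or suffix 2, and no label ties a suffix to a genotype. The suffixes were therefore treated as 2 unassigned libraries without replicates, no test was possible, and paired values below are for suffix 1 and then suffix 2. All 95% intervals cover counting error only.

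pDCs are rare dendritic cells of bone marrow origin that sense the nucleic acids of viruses in endosomes and can secrete large amounts of type I interferon. Their identity depends on the E protein TCF4, while its antagonist ID2 favours conventional dendritic cells (cDCs). Mouse pDCs also carry traces of a lymphoid gene programme, and they present antigen less well than cDCs while at rest.

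Promoter sequence is shown for 3 genes whose transcripts were far higher in pDCs than in other barcodes, since TCF4 is known to act on genes of pDC identity. Cd300c and Atp2a1 ranked near the top, and Cd209d was the 1 identity gene with the second motif. RefSeq promoters of build GRCm38.p6, from 250 bases before to 50 bases after each start, were searched on both strands for CAGNTG, an E-box that E proteins can bind, and for the composite of an ETS core, GGAA, and an IRF core, GAAA, 2 bases apart. The motifs may overlap. Other genes of the same ranking had promoters without an E-box, among them Pdzd4, Ppm1e, Runx2 and, for some of its promoters, Grm8, which ranked first. The promoter of Cd300c, a surface receptor, lies on the minus strand at chr11:114960458-114960757 and holds 3 E-boxes. That of Atp2a1, a calcium pump, is on the minus strand at chr7:126463024-126463323 and holds 1 E-box. That of Cd209d, a C-type lectin, is on the minus strand at chr8:3878450-3878749 and holds 1 E-box and 1 composite. They are printed 5′ to 3′ with the matches in capitals.
Cd300c: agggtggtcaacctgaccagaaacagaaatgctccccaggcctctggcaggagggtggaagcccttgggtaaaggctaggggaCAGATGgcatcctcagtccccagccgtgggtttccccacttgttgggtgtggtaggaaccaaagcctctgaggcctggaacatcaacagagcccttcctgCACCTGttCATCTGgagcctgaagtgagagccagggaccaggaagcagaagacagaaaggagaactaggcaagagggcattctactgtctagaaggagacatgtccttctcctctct
Atp2a1: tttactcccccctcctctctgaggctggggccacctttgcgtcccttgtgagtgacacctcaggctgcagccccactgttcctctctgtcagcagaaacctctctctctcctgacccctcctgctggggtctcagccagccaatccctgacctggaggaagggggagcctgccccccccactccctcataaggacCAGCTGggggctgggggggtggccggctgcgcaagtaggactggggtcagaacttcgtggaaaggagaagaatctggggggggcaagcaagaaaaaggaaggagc
Cd209d: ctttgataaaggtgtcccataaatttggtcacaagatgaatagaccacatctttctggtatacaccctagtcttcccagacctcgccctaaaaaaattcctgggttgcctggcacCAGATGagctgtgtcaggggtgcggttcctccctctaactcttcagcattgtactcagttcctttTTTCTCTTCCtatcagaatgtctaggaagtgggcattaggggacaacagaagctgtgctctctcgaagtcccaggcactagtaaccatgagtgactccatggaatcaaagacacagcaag
Of 32 pDC identity genes outside the rule, 26 had RefSeq promoters in this set, 39 promoters in all. An E-box was present in 16 of these (41.0%) and the composite in 1 (2.56%). Over all 32851 promoters the shares were 51.4% and 2.72%, so neither motif was more frequent in promoters of the identity genes.

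The rule kept 140 pDCs with suffix 1 and 115 with suffix 2. They made up 1.68% (exact binomial 95% interval 1.42 to 1.98) of the 8320 barcodes with suffix 1 that passed the UMI and mitochondrial limits, and 2.46% (2.03 to 2.94) of the 4676 with suffix 2. Of all barcodes they made up 0.809% and 0.767%. The limit on UMIs removed 3959 barcodes with suffix 1 and 1608 with suffix 2, and the mitochondrial limit then removed 5034 and 8719. The pDCs held a median of 7186 and 6650 UMIs and of 2773 and 2613 genes, with 4.79% and 5.29% of UMIs from mitochondrial genes at the median. Summed over pDCs there were 1130268 and 836336 UMIs, so that 1 gene at 0 UMIs may reach 2.65 and 3.59 CPM (UMIs of a gene per 1000000 UMIs of the same cells) at the limit of 3 counts. Suffixes 1 and 2 shared 81 barcode sequences, none of them between pDCs, and 1 pDC sequence of suffix 2 was also present among suffix 1 barcodes.

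Siglech, the sialic acid binding lectin that defines mouse pDCs, ranged from 2 to 44 UMIs per pDC with a median of 13 in suffix 1, and from 2 to 33 with a median of 14 in suffix 2. Ccr9, a gut-homing chemokine receptor, was detected in 91.4% and 96.5% of pDCs. The serine protease Klk1 was detected in 85.0% and 95.7%, although a near-identical kallikrein, Klk1b27, may share its reads. The mitochondrial subunit Cox6a2 was detected in 77.1% and 87.0%, and the tetherin Bst2 in 98.6% and 99.1%. These genes took part in the choice of cells, and no support is drawn from them.

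The edge of the rule was sparse. With Siglech at exactly 2 UMIs there were 6 and 2 pDCs, whose summed Tcf4 was 865 and 2259 CPM, the latter from 1 cell. In suffix 1 these 6 pDCs held Ly6d at 19.2 CPM, 0 UMIs of Klk1 and Cox6a2, and Alb at 29989 CPM. A further 128 and 105 pDCs held over 5 UMIs of Siglech, with Tcf4 at 3909.6 and 3208 CPM. Just outside, 16 and 15 barcodes met all other limits with 1 UMI of Siglech. Their Tcf4 was 125 and 104 CPM and their Ly6d 8.05 and 4.73 CPM, with Alb at 29484 and 30901 CPM, so the 6 pDCs of suffix 1 were near this set in Ly6d and Alb. Another 14 and 8 barcodes were left out for Cd3e, with Tcf4 at 2496 and 2122 CPM, and 4 and 1 for C1q genes. Barcodes left out for Cd3e thus held more Tcf4 than those with 1 UMI of Siglech.

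**Figure D1:**
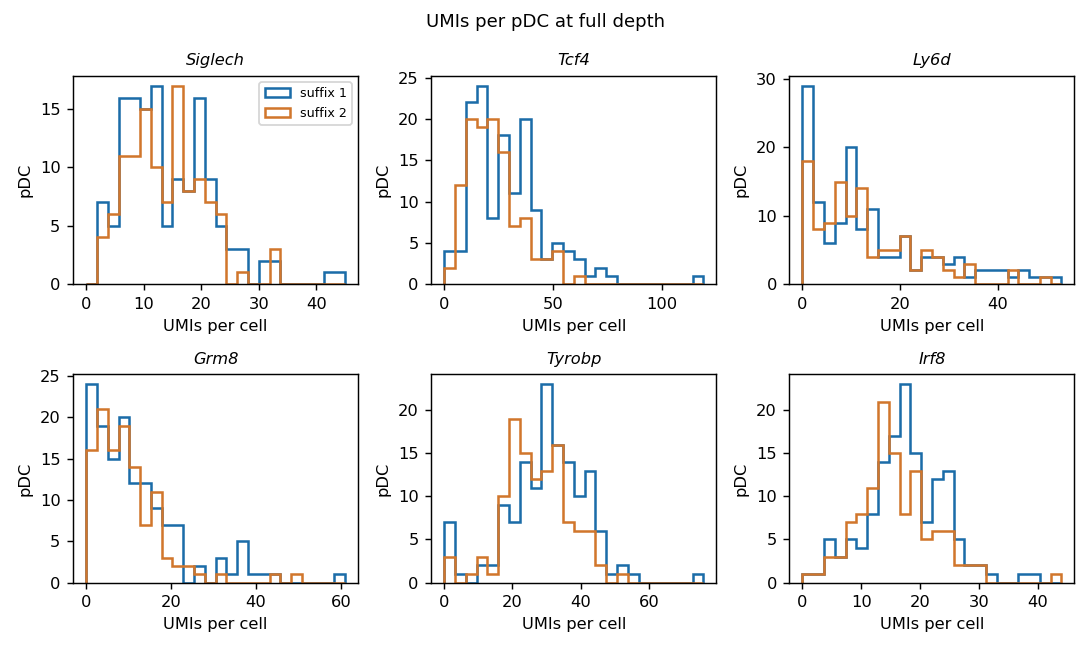
Histograms of UMIs per pDC (horizontal axis) against the number of cells (vertical axis) for Siglech, Tcf4, Ly6d, Grm8, Tyrobp and Irf8, coloured by barcode suffix. Siglech starts at 2 UMIs because the rule requires it, Tcf4 has medians of 28 and 21 UMIs, and Tyrobp has medians of 31 and 27.

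The label was checked with Tcf4, the marker that the rule did not use. Per pDC it ranged from 0 to 118 UMIs with a median of 28 in suffix 1, and from 0 to 64 with a median of 21 in suffix 2. Only 1 pDC of each suffix held none. Summed, Tcf4 stood at 3613 CPM (95% interval 3503 to 3726) and 3082 CPM (2965 to 3204), against 94.0 and 111 CPM in all other barcodes past the limits, which is 38.5 and 27.9 times as high. cDCs (47 and 62 cells) held 181 and 113 CPM. They were taken as barcodes with at least 2 UMIs of Xcr1, Clec9a and Cd209a in sum, without Siglech, Cd3e or Cd79a. Their C1q genes were kept under the limit of the rule. B cells (197 and 178) held 276 and 221 CPM and T cells (621 and 585) held 28.8 and 30.7 CPM, so the pDCs of both suffixes stood above each of these sets beyond counting error. After each cell was thinned to 1000 UMIs, Tcf4 was detected in 94.3% and 89.6% of pDCs, in 17.3% and 23.0% of B cells and in 2.74% and 2.39% of T cells. Without thinning the shares were 99.3% and 99.1% of pDCs and 9.50% and 7.01% of T cells, at median depths of 4802 and 4327 UMIs in T cells. These T cell barcodes were required to hold 0 UMIs of Siglech, so they are a comparison set and no measure of all free RNA.

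Of the 32 identity genes, 29 were at least 2-fold higher in pDCs than in other barcodes in both suffixes and 1 was at least 2-fold lower. Over all 14038 genes with at least 20 UMIs in the pair of sets, 12.5% were higher and 13.3% lower. The median ratio of the list was 37.4 and 27.9, beside 1.11 and 0.990 over all genes. Against cDCs, 29 of 31 were higher and 0 lower, where 8.94% of 7761 genes were higher and 7.94% lower, and the median ratio was 16.2 and 22.9 beside 1.10 and 1.05. The list was chosen as known pDC genes with results of these data already in view. The gene that was lower was Xcl1, a chemokine, with 6 and 11 UMIs in pDCs. Zeb2 and Upb1 were above 2-fold in 1 suffix only.

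Grm8, a glutamate receptor, ranged from 0 to 60 UMIs per pDC (median 9) and from 0 to 49 (median 8). Its level was 1458 CPM (1389 to 1530.2) and 1342 CPM (1264 to 1422), beside 0.831 and 2.88 CPM in T cells and 0 UMIs in B cells. This was 182 and 211 times the level of other barcodes, the highest lower limit of any gene at 50 CPM or more outside the rule. Atp2a1 followed at 104 and 92.1 CPM and Cd300c at 392 and 395 CPM, with ratios of 161 and 206 for Cd300c. Both are genes whose promoters are printed above, and both differed little between suffixes, with ratios of suffix 2 to suffix 1 of 0.889 (0.658 to 1.20) and 1.01 (0.870 to 1.16). The lectin Cd209d stood at 278 and 316 CPM, 244 and 129 times the other barcodes. Other genes near the top were Smim5 (323 and 387 CPM), a small membrane protein, Paqr5 (165 and 165 CPM), a progestin receptor, Havcr1 (92.9 and 111 CPM), a phosphatidylserine receptor, and the neuronal genes Ppm1e (359 and 380.2 CPM), Lrp8 (166 and 176 CPM) and Gria3 (327 and 229.6 CPM). Transcripts without a protein name, Gm34680 (219 and 224 CPM), Gm21762 (131 and 221 CPM), Gm12649 (61.9 and 55.0 CPM), Gm12253 (97.3 and 93.3 CPM) and Eldr (174 and 154 CPM), were among the same 20 genes. Klk1b27 was at 166 and 225 CPM and is uncertain for its likeness to Klk1.

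**Figure D2:**
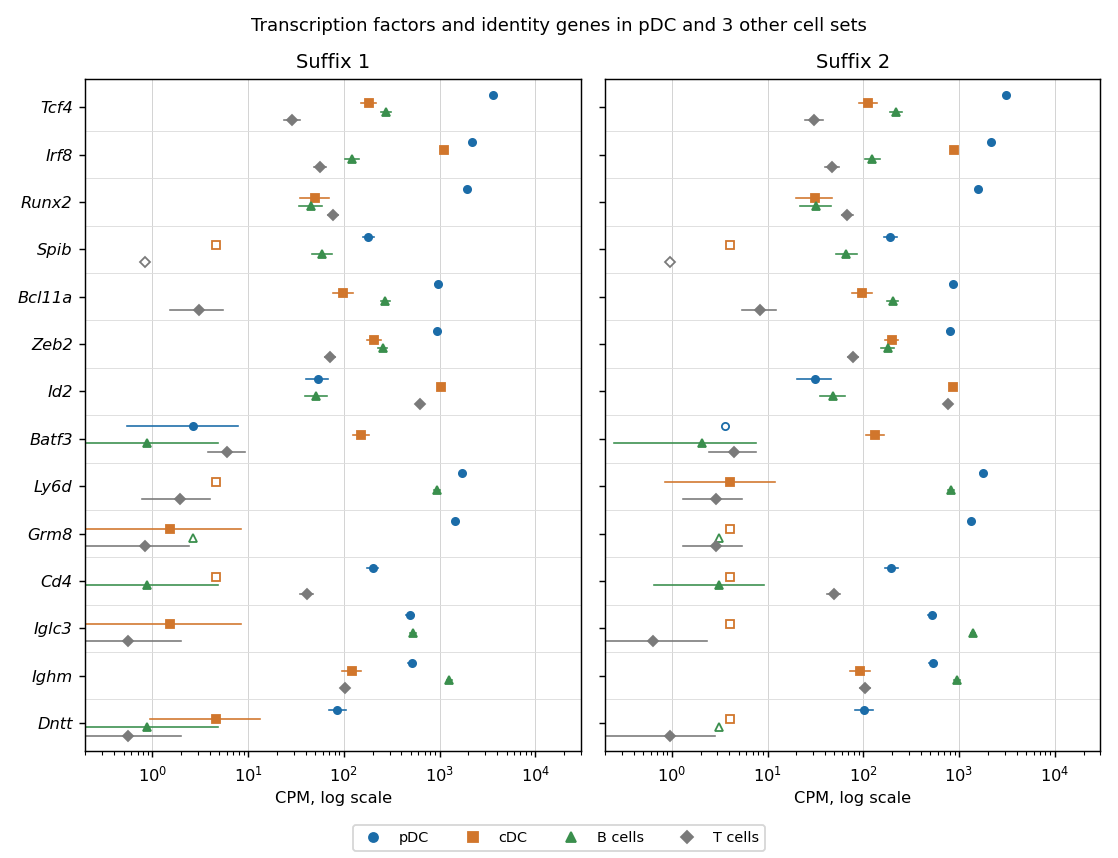
Levels of 14 genes in pDCs, cDCs, B cells and T cells as CPM on a log axis, with 1 panel for each suffix. Points are summed CPM, bars are exact Poisson 95% intervals, and open symbols mark 0 UMIs and are drawn at the limit of 3 counts. Tcf4, Runx2 and Grm8 are highest in pDCs in both panels, Id2 and Batf3 are highest in cDCs or T cells, and Ly6d, Iglc3 and Ighm are shared with B cells.

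Among 28 transcription factors of dendritic cells and lymphocytes, 11 were higher and 4 lower than in other barcodes (12.5% and 13.3% of all genes), and 10 of 23 were higher and 4 lower than in cDCs (8.94% and 7.94%). Runx2, which acts in pDC migration and maturation, stood at 1943 CPM (1862 to 2026) and 1585 CPM (1501 to 1673), 38.6 and 50.6 times the level of cDCs. Spib, an ETS factor, stood at 180.5 CPM (157 to 207) and 191 CPM (163 to 223), with 0 UMIs in cDCs (a lower limit of the ratio of 31.8 and 37.6) and 59.6 and 66.6 CPM in B cells. Bcl11a, a zinc finger factor of lymphoid and pDC development, was at 952 and 867 CPM against 99.1 and 96.8 CPM in cDCs. Irf8, needed by both dendritic lineages, differed less: 2175 CPM (2089.6 to 2262) and 2175 CPM (2076 to 2277) in pDCs against 1116 and 892 CPM in cDCs, ratios of 1.95 and 2.44.

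The 4 factors lower than in cDCs were Id2, Batf3, Zbtb46 and Spi1, which act in conventional or myeloid cells. Id2 was at 53.1 CPM (40.5 to 68.3) and 31.1 CPM (20.3 to 45.6), against 1029 and 864 CPM in cDCs. Batf3 gave 3 and 0 UMIs over all pDCs, and Zbtb46 gave 18 and 3. Spi1 was at 71.7 and 28.7 CPM against 354 and 331 CPM. pDCs of both suffixes were therefore high in Tcf4 and low in its antagonist Id2, and the cDC set showed the opposite order.

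Of 26 tested nucleic acid sensing genes, 7 were at least 2-fold higher in pDCs than in other barcodes and 4 lower, beside 12.5% and 13.3% of all genes. Tlr7, the endosomal receptor for single-stranded RNA, ranged from 0 to 6 and from 0 to 7 UMIs per pDC with a median of 1 in each suffix. It stood at 128 CPM (108 to 151) and 135 CPM (111 to 162), against 4.57 and 1.36 CPM in cDCs. After thinning, 10.0% and 10.4% of pDCs held a UMI of it (56.4% and 53.9% unthinned), beside 0.161% and 0.171% of T cells. Tlr9, the receptor for unmethylated DNA that pDCs are also known for, gave only 5 and 0 UMIs. Its level is not compared with other cells in the text. Without the pDCs marked below for other cell types' genes, its upper 95% limits were 13.3 and 6.23 CPM. Tlr7 was at 146 and 165 CPM in the same cells. Tlr3, the receptor for double-stranded RNA, was at 174 and 149 CPM in cDCs and gave 9 and 1 UMIs in pDCs, and Tlr8 gave 0 UMIs.

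The other 6 of these 7 genes were Tlr12, a further endosomal receptor (42.5 and 50.2 CPM), Cnpy3, a chaperone of the receptors (77.9 and 76.5 CPM), Unc93b1, Slc15a4, Pld4 and Tmem173. Unc93b1, which carries these receptors to endosomes, was at 439.7 CPM (402 to 480.1) and 485 CPM (439 to 535). Slc15a4, an endosomal histidine transporter needed for interferon responses, was at 77.9 and 81.3 CPM, 5.68 and 4.26 times the cDC level. The endosomal nuclease Pld4 was at 514 and 538 CPM, 3.44 and 3.43 times that level. Irf7, the factor that drives the interferon alpha genes, was at 149.5 CPM (128 to 174) and 197 CPM (168 to 229.8), 3.38 and 3.81 times the cDC level. The cytosolic RNA sensors Ifih1 (23.0 and 14.3 CPM) and Ddx58 (7.08 and 8.37 CPM) were among the genes lower than in other barcodes. So was Pld3, a nuclease related to Pld4. Tmem173, which encodes STING, the adaptor of cytosolic DNA sensing, was at 61.0 and 58.6 CPM.

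No type I or type III interferon transcript was found among the listed genes. All 13 listed interferon alpha genes, Ifnab, Ifnb1, Ifnl2, Ifnl3 and Ifne gave 0 UMIs in the 255 pDCs, which allows up to 2.65 and 3.59 CPM for each. Ifng, the type II interferon, gave 1 and 2 UMIs, in 1 pDC of each suffix. The cytokine genes Il12a, Il12b and Il6 also gave 0 UMIs, Tnf gave 12 and 9 and Il10 gave 1 and 1. The alpha genes are near-identical copies whose reads may be dropped in counting. Of the 11 genes of this list that could be compared with other barcodes, 3 were at least 2-fold higher and 6 lower (12.5% and 13.3% of all genes). Tgfb1 was at 124 and 163 CPM and the chemokine Ccl4 at 26.5 and 37.1 CPM, both among the higher ones, but 1 pDC of each suffix held 36.7% and 41.9% of the Ccl4 UMIs. Ccl5 was at 118 and 155 CPM, but 63.2% and 36.2% of its UMIs lay in 1 pDC of each suffix, and it was at 5.71 and 6.75 CPM without the pDCs rich in other cell types' genes that are described below.

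Of 32 interferon-stimulated genes, 6 were higher and 9 lower than in other barcodes, where 12.5% and 13.3% of all genes were, with a median ratio of 0.997 and 0.841 beside 1.11 and 0.990 over all genes. The higher ones were Trim30a (420.3 and 386 CPM), a regulator of inflammatory signalling, Ifi27l2a (653 and 487 CPM), Ifi44 (58.4 and 49.0 CPM), the immunoproteasome subunits Psmb8 and Psmb9, and the peptide transporter Tap1. Against cDCs 1 of 24 was higher, Irf7, and 3 were lower, beside 8.94% and 7.94% of all genes. Isg15, a ubiquitin-like modifier, was at 104 CPM (86.4 to 125) and 57.4 CPM (42.3 to 76.1), and Ifitm3, a membrane protein that blocks virus entry, at 469.8 CPM (431 to 512) and 249.9 CPM (217 to 286). Both were lower in suffix 2, by ratios of 0.550 (0.385 to 0.775) and 0.532 (0.451 to 0.625). In T cells the same genes were at 108 and 72.2 CPM and at 391 and 304 CPM, so they were lower in suffix 2 there too.

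Of 21 antigen presentation genes compared with cDCs, 9 were at least 2-fold lower and 0 higher, beside 7.94% and 8.94% of all genes, with a median ratio of 0.463 and 0.495. Cd74, the invariant chain, ranged from 0 to 146 UMIs per pDC (median 22) and from 0 to 91 (median 26). Its level was 2952 CPM (2853 to 3054) and 3680.3 CPM (3551 to 3813) against 11688 and 10474 CPM in cDCs, ratios of 0.253 and 0.351. The MHC class II chains followed, with H2-Aa at 959.9 and 1277 CPM, H2-Ab1 at 774 and 1122 CPM and H2-Eb1 at 420.3 and 629 CPM, which were 0.202 and 0.285, 0.142 and 0.238, and 0.109 and 0.187 of the cDC levels. Ciita, the regulator that switches these genes on, was at 45.1 and 41.8 CPM against 389 and 384 CPM. The costimulatory ligands Cd80 and Cd86 gave 1 and 2 UMIs and 9 and 1 UMIs, and Cd83, a marker of maturation, gave 2 and 3. Against other barcodes 10 of 24 were higher (12.5% of all genes), Cd74, H2-Aa and H2-Ab1 among them. The class I heavy chain H2-K1 (1535 and 1642 CPM) and B2m (1722 and 1618 CPM), its light chain, were within 2-fold of other barcodes.

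**Figure D3:**
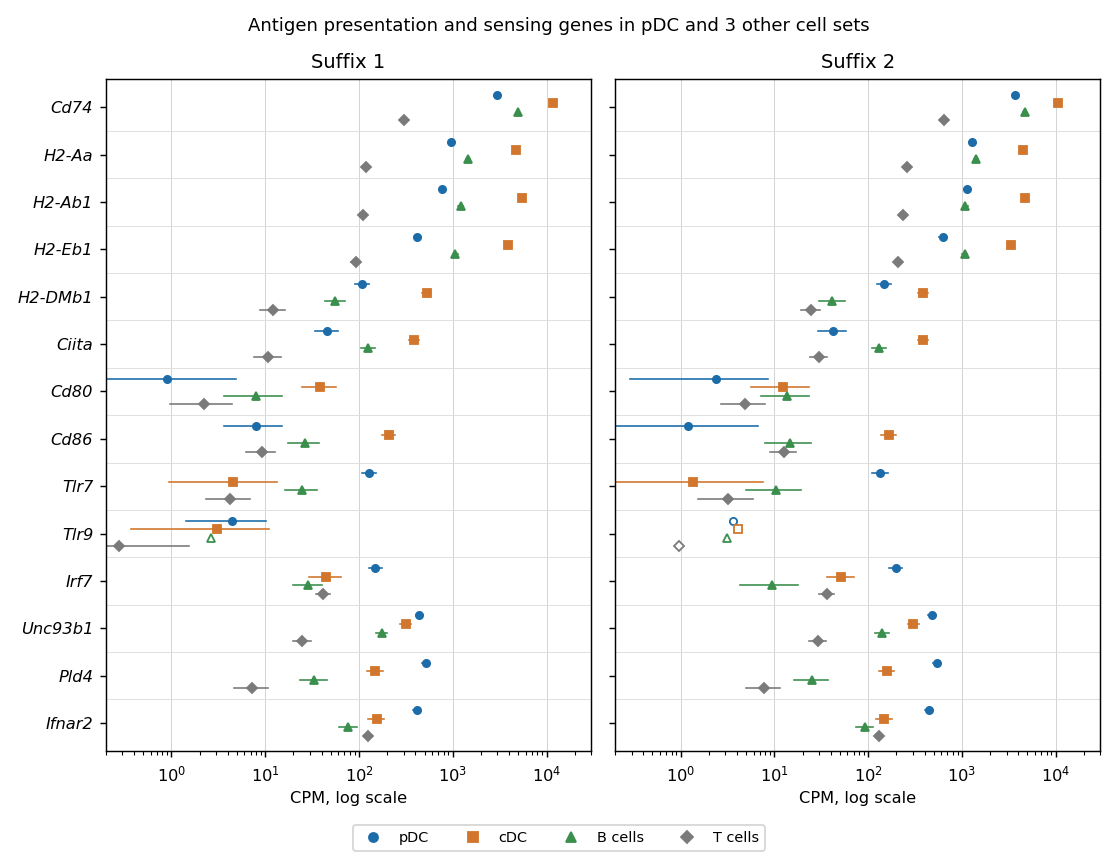
Levels of 14 genes of antigen presentation and nucleic acid sensing in pDCs, cDCs, B cells and T cells as CPM on a log axis, 1 panel for each suffix, with exact Poisson 95% intervals and open symbols for 0 UMIs drawn at the limit of 3 counts. The class II genes and Cd86 are highest in cDCs, and Tlr7, Irf7 and Pld4 are highest in pDCs.

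Receptors that signal through immunoreceptor motifs and their adaptors were counted next: 17 of 24 were higher and 1 lower than in other barcodes (12.5% and 13.3% of all genes), and 13 of 21 were higher and 1 lower than in cDCs (8.94% and 7.94%). Tyrobp encodes DAP12, the adaptor through which Siglec-H signals. It ranged from 0 to 75 UMIs per pDC (median 31) and from 1 to 51 (median 27), and its level of 3739.8 CPM (3628 to 3854) and 3731 CPM (3601 to 3864) was the same between suffixes within counting error. The cDC levels were 559 and 667 CPM. Lair1, an inhibitory collagen receptor, stood at 593 and 605 CPM against 6.10 and 8.18 CPM in cDCs. Klra17, a Ly49 receptor, was at 212 and 188 CPM, the receptor phosphatase Ptprs at 192 and 165 CPM, and the inhibitory receptor Lag3 at 70.8 and 78.9 CPM. The B cell linker Blnk was at 254 CPM (225 to 285) and 282 CPM (247 to 321), close to its 270.0 and 236 CPM in B cells and far above the 6.10 and 10.9 CPM of cDCs. The Fc receptor Fcgr2b was lower than in cDCs, at 23.9 and 21.5 CPM against 74.7 and 150.0 CPM.

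Of 18 growth factor and cytokine receptors, 6 were higher and 5 lower than in cDCs, beside 8.94% and 7.94% of all genes. Flt3, the receptor for the main dendritic cell growth factor, was at 132 and 116 CPM in pDCs and 239 and 267 CPM in cDCs. Csf1r, the receptor of the macrophage lineage, gave 4 and 4 UMIs. Il7r, a receptor of lymphoid progenitors and T cells, was at 212 CPM (186 to 241) and 240.3 CPM (208 to 276), against 32.0 CPM and 0 UMIs in cDCs and 468 and 493 CPM in T cells. Both chains of the type I interferon receptor were detected, Ifnar1 at 115 and 95.7 CPM and Ifnar2 at 411 and 446 CPM, whereas Ifngr1, a chain of the interferon gamma receptor, was at 33.6 and 21.5 CPM against 302 and 312 CPM in cDCs.

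Of 19 migration and adhesion genes, 5 were higher and 4 lower than in cDCs, beside 8.94% and 7.94% of all genes. The sphingosine phosphate receptor S1pr4 (33.6 and 47.8 CPM) and the integrin chain Itgb3 (31.9 and 22.7 CPM) were among those higher than in cDCs. Ccr7, which guides mature dendritic cells to lymph nodes, gave 1 and 6 UMIs, and the integrin chain Itgae gave 10 and 0. Itgax, the CD11c chain, was at 37.2 and 35.9 CPM against 131 and 129.5 CPM.

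Of 20 lysosomal and endosomal genes, 5 were higher and 0 lower than in cDCs, beside 8.94% and 7.94% of all genes. Among them were the cathepsins Ctsl (887 and 939.8 CPM against 160.0 and 192 CPM) and Ctsb (995 and 1006 CPM against 191 and 194 CPM), the granulin precursor Grn (675 and 684 CPM against 151 and 135 CPM) and Cybb, the NADPH oxidase subunit (784 and 806 CPM against 82.3 and 112 CPM). In the secretory pathway, 6 of 26 genes were higher than in other barcodes and 0 lower, beside 12.5% and 13.3% of all genes. These were Mzb1 (84.1 and 146 CPM), a chaperone of antibody-forming cells, Sec11c (286 and 294 CPM), Sec61b (795 and 721 CPM), Ssr2, the stress sensor Ern1 (90.2 and 110.0 CPM) and Atf6 (184 and 165 CPM). Without the pDCs marked below for other cell types' genes, Mzb1 was at 98.2 and 119.9 CPM. Against B cells 1 of 26 was higher and 5 lower, where 10.7% of 7995 genes were higher and 4.78% lower.

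All 11 lymphoid genes that could be compared with cDCs were higher in pDCs, beside 8.94% of all genes. The cDC set was taken without Cd79a, whereas the rule for pDCs set no limit on B cell genes. All 7 B cell markers that could be compared, partly the same genes, were also higher than in cDCs. Of the lymphoid list, Iglc1 and Cd2 were lower without the pDCs marked below for other cell types' genes. Of 15 compared with B cells, 4 were higher and 7 lower (10.7% and 4.78% of all genes). Cd4 ranged from 0 to 10 UMIs per pDC with a median of 1 in suffix 1, and from 0 to 8 with a median of 1 in suffix 2. It stood at 201 CPM (176 to 229) and 197 CPM (168 to 229.8), against 0 UMIs in cDCs (a lower limit of the ratio of 35.4 and 38.8), and 41.0 and 48.9 CPM were found in the T cell set. Iglc3, an immunoglobulin lambda constant gene, was at 491 CPM (451 to 534) and 524 CPM (476 to 575), beside 529 and 1396 CPM in B cells and 1.52 CPM and 0 UMIs in cDCs. Its near-identical copies make the split between Iglc1, Iglc2 and Iglc3 uncertain. Ighm, the mu heavy chain, was at 512 and 539 CPM, beside 1266 and 951 CPM in B cells and 103 and 105 CPM in T cells. Dntt, the terminal transferase of early lymphocytes, was at 85.8 CPM (69.6 to 105) and 102 CPM (81.2 to 126), with 0.877 CPM and 0 UMIs in B cells, while Rag1 and Rag2 gave 0 UMIs in pDCs. After thinning, a UMI of Dntt was found in 7.86% and 11.3% of pDCs (39.3% and 44.3% unthinned) and in 0.161% and 0 of T cells. The surface protein Ly6d, which marks B cell progenitors and pDCs, was at 1706 CPM (1630.5 to 1784) and 1765 CPM (1676 to 1857) against 939.7 and 827 CPM in B cells.

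Of 16 cell cycle genes, 13 gave at most 6 UMIs in each suffix. The others were Tubb5, a tubulin, at 149.5 and 185 CPM, Pcna, the DNA polymerase clamp, at 31.0 and 46.6 CPM and Stmn1, a microtubule regulator, at 14.2 and 25.1 CPM. Mki67 and Top2a, which mark dividing cells, gave 1 and 0 UMIs and 2 and 2 UMIs, against 213 and 203 CPM and 221 and 282 CPM in cDCs, and 12 of 13 genes were lower than in cDCs (7.94% of all genes). Of 22 immediate early and stress genes, 2 were higher and 6 lower than in other barcodes, against 12.5% and 13.3% of all genes. Fos gave 2 and 0 UMIs. Klf2, a factor of lymphocyte quiescence and circulation, was at 134 CPM (113 to 157) and 265 CPM (232 to 303).

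Of 15 genes followed in the study, 4 were at least 2-fold higher and 5 lower than in other barcodes, beside 12.5% and 13.3% of all genes. Spp1, which encodes osteopontin, was at 64.6 CPM and 10 UMIs, under its 789.7 and 149.5 CPM in other barcodes, and T cells of the same suffix held 589.5 and 10.2 CPM. Cebpa was at 21.2 and 35.9 CPM, beside 3.05 and 20.8 CPM in T cells. Receptors through which osteopontin can act were present, with Cd44 at 326 and 326 CPM and the integrin chain Itga4 at 304 and 334 CPM, and Itga9 gave 5 and 4 UMIs.

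Genes of other cell types showed that some pDC barcodes held other RNA. The limits on C1q and Cd3e in the rule remove barcodes rich in Kupffer or T cell RNA, so the levels of these markers in pDCs are a description. The 12 Kupffer markers summed to 83.2 and 94.5 CPM, against 1569 and 3046 CPM in other barcodes, and the T cell markers to 104 and 56.2 CPM against 4064 and 4389.9 CPM in T cells. Hepatocyte markers were present in each pDC, from 119 to 10305 and from 119 to 4770 UMIs, with means of 473 and 439.9 UMIs per pDC against 331 and 351 per T cell. Alb, the albumin transcript, was at 11422 and 12741 CPM in pDCs and 10351 and 12575 CPM in T cells. Taking 10 or more UMIs summed over selected genes of another type, fewer than its full marker list for most types, or 1000 or more of hepatocyte genes, marked 17 and 20 pDCs (12.1% and 17.4%): 4 and 9 by B cell genes, 4 and 8 by hepatocyte genes and 4 and 0 by erythroid genes, with others by plasma, T, NK, neutrophil and endothelial genes. None reached the limit with the 6 Kupffer genes used, and the highest sum over all 12 Kupffer markers was 11 and 5 UMIs in a pDC. No doublet caller was run, and what these barcodes are was not tested. This limit was chosen after seeing the data.

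Without the marked pDCs, 123 and 95 remained. Of the lymphoid genes not used in marking, Iglc3 was then at 571 and 599 CPM, Ighm at 538 and 572 CPM, Dntt at 97.0 and 127 CPM and Ly6d at 2003 and 2006 CPM. The CPM of these 4 genes was no lower than before, but leaving out RNA of other types raises the CPM of the genes that remain. Tcf4 rose too, and Ighm rose by a smaller factor than Tcf4. Iglc1 went from 32.7 and 57.4 to 9.13 and 15.2 CPM. Cd2, an adhesion protein of lymphocytes, went from 4.42 and 29.9 to 1.14 and 3.38 CPM. The B cell genes Ebf1 and Cd79a, which had 66 and 112 and 31 and 72 UMIs in all pDCs, had 0 and 1 and 1 and 0 UMIs left, but these were among the genes used to mark. Tcf4 was at 4045 and 3512 CPM, Irf8 at 2496 and 2575 CPM and Cd74 at 3302 and 4069.7 CPM.

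Between the suffixes, 0 of 31 identity genes differed by 2-fold or more, while 2.18% of 8476 genes with at least 20 UMIs in pDCs were at least 2-fold higher in suffix 2 and 3.53% at least 2-fold lower. Tcf4 was 0.853 (0.812 to 0.896) and Runx2 0.816 (0.762 to 0.874) of the suffix 1 level in suffix 2. Of 24 transcription factors compared, 2 were higher and 4 lower in suffix 2. The 2 higher were the B cell factors Ebf1 (66 and 112 UMIs) and Pax5 (12 and 29 UMIs), which gave 0 and 1 and 0 and 0 UMIs without the marked pDCs. The interval of the ratio for Spi1 ran from 0.243 to 0.638, and its levels in other barcodes were 58.1 and 95.8 CPM, in the other direction. Klf2 had a ratio of 1.99 (1.61 to 2.46), just under the limit, and 1.95 without the marked pDCs. Its levels in T cells were 198 and 179 CPM.

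**Figure D4:**
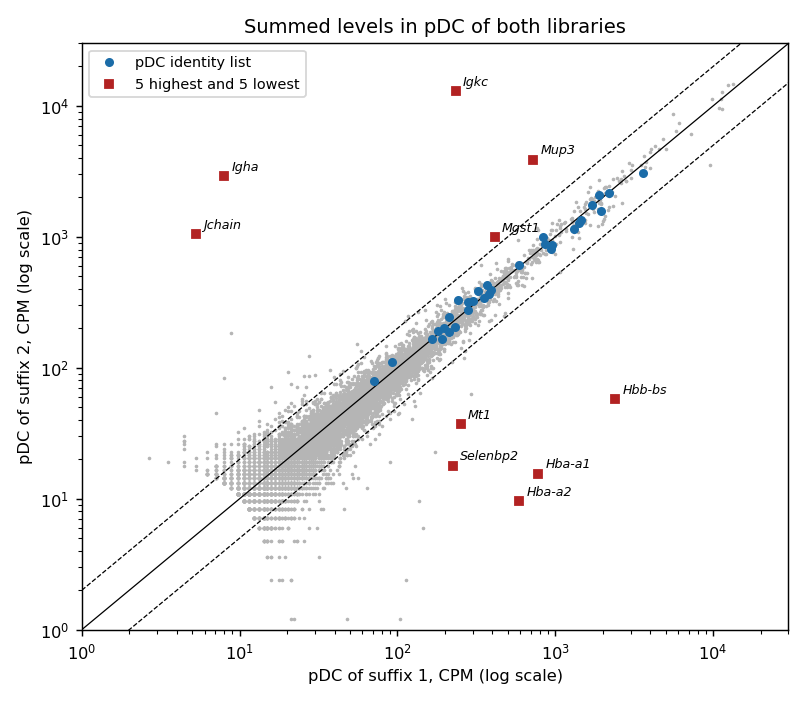
Level of each gene in pDCs of suffix 1 (horizontal axis) against suffix 2 (vertical axis) as CPM, both axes log, for genes with at least 20 UMIs. The solid line marks equal levels and the dashed lines 2-fold, the identity list is blue and the 10 genes ranked highest and lowest between suffixes among those at 200 CPM or more are red. The blue points lie between the dashed lines.

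Class II genes were higher in suffix 2, with ratios of 1.25 (1.19 to 1.31) for Cd74, 1.33 (1.22 to 1.45) for H2-Aa, 1.45 (1.32 to 1.59) for H2-Ab1, and an interval from 1.32 to 1.70 for H2-Eb1. B cell genes marked 4 and 9 pDCs. Without all marked pDCs the ratios of these 4 class II genes were 1.23, 1.35, 1.43 and 1.51. T cells also held more in suffix 2, at 299 and 649.6 CPM for Cd74 and 119.7 and 262 CPM for H2-Aa, whereas cDCs held 11688 and 10474 CPM of Cd74. Whether free RNA contributed to the difference in pDCs was not tested.

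The 10 genes named by the ratio between suffixes were taken among those at 200 CPM or more in either suffix, so genes at a lower level are not among them. Igha, Igkc and Jchain, antibody genes of plasma cells, were 364, 55.3 and 196 times as high in suffix 2, and 1 pDC held 98.8%, 96.9% and 99.8% of their UMIs there. Without the marked pDCs the ratios were 1.29, 1.18 and 0.493, each with an interval that held 1. The globin genes Hbb-bs, Hba-a1 and Hba-a2 were at 0.0240, 0.0200 and 0.0162 of the suffix 1 level, and 1 pDC of suffix 1 held 73.1%, 67.5% and 66.7% of their UMIs. Without the marked pDCs these ratios were 0.575 (0.378 to 0.859), 0.380 (0.161 to 0.807) and 0.255 (0.0771 to 0.666). Jchain and the globin genes were among the genes used to mark, so their ratios without the marked pDCs are in part set by the marking. The remaining 4 of the 10 are genes strong in hepatocytes, and T cells differed alike. Mup3, a major urinary protein, was at 723 and 3868 CPM in pDCs and 786 and 4334 CPM in T cells, and Mgst1, a glutathione transferase, at 412 and 994 CPM against 465 and 1186 CPM. Selenbp2 was lower in suffix 2, at 225 and 17.9 CPM against 214 and 29.1 CPM, and the metallothionein Mt1 was at 252 and 37.1 CPM against 220.0 and 48.9 CPM. For Mt1, 1 pDC of suffix 1 held 47.4% of the UMIs, and the levels without the marked pDCs were 119.9 and 22.0 CPM.

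The spread between pDCs was described for the named genes. The pDCs with at least 3000 UMIs that were not marked above (120 and 93), which still held hepatocyte RNA, were thinned to 3000 UMIs, and the variance over the mean was computed, which is 1 for counting noise alone. Over 1551 genes with a mean of at least 100 CPM in both suffixes the median was 1.12 and 1.11, and 2.51% exceeded 2 in both suffixes. Malat1, a nuclear RNA, reached 11.8 and 13.1, and mitochondrial transcripts such as mt-Atp6 14.7 and 9.93. The hepatocyte transcript Alb (5.16 and 5.18) also varied. Of genes of immune cells, Cd74 was at 7.03 and 5.03, H2-Ab1 at 4.71 and 3.74, H2-Eb1 at 2.53 and 2.06, Ly6d 5.03 and 3.84, Ly6c2, a surface protein shared with monocytes, 4.50 and 3.36, and Klk1 3.74 and 6.23. Tcf4 was at 3.57 and 2.10 and Tyrobp at 1.98 and 1.70. The summed UMIs of Cd74, H2-Aa, H2-Ab1 and H2-Eb1 ran from 0 to 84 with a median of 15 in suffix 1, where 11 cells held none, and from 0 to 81 with a median of 20 in suffix 2, where 2 held none.

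Among 69 named genes with a mean of at least 1 UMI, with hepatocyte, erythroid, mitochondrial and antibody-secreting cell genes and Gm42418, Mgst1, Mt1 and Selenbp2 left out, 9 of 2346 pairs had a Spearman rho of at least 0.4 over cells in both suffixes and 0 were at or under -0.4, with a median rho of 0.04 and 0.03. These cells share a library and a fixed depth, and the values are descriptions. The 6 pairs among Cd74, H2-Aa, H2-Ab1 and H2-Eb1 had rho from 0.69 to 0.81 in suffix 1 and from 0.65 to 0.73 in suffix 2. Cd74 also went with Klk1 (0.48 and 0.41), and Malat1 went with Grm8 (0.42 and 0.44) and with Mctp2, a membrane protein of the calcium-binding kind (0.47 and 0.40).

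**Figure D5:**
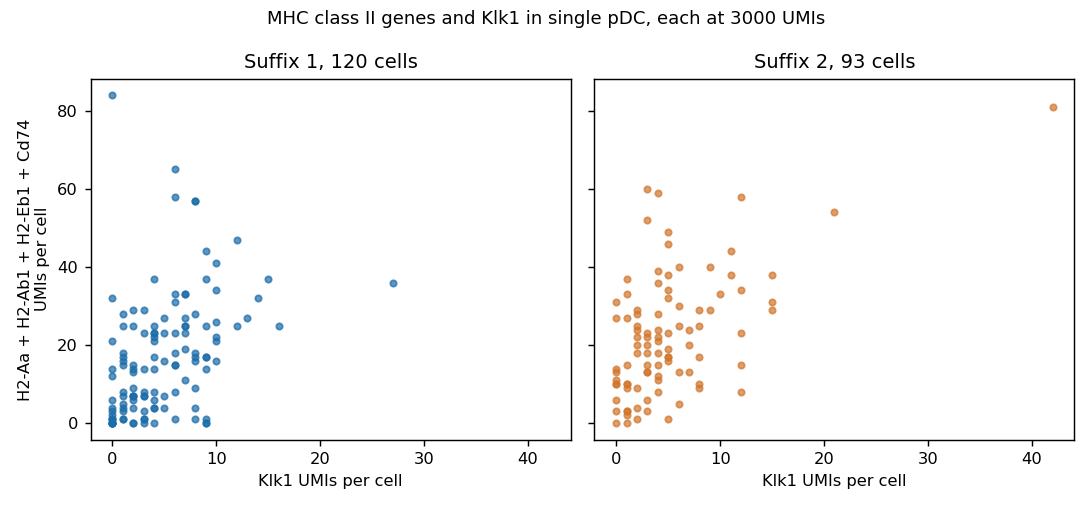
UMIs of Klk1 (horizontal axis) against summed UMIs of H2-Aa, H2-Ab1, H2-Eb1 and Cd74 (vertical axis) per pDC, each cell thinned to 3000 UMIs, for 120 cells of suffix 1 and 93 of suffix 2. The sums run from 0 to 84 and from 0 to 81 UMIs, and the rho of Klk1 with Cd74 alone was 0.48 and 0.41.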

How the data were processed

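The authors' deposited matrix holds whole-number counts of UMIs per gene and barcode for both samples joined. The submitters' processing notes name bcl2fastq 2.20.0, Cell Ranger 7.1.0, STAR 2.7.2a and mm10, with no settings. Whether introns were counted or depth was equalised is not given. No label ties a barcode suffix to a sample. Reads in near-identical copies may be lost or split, and Gm42418 overlaps ribosomal RNA.

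UMIs were summed over cells in Python 3.11.15 (numpy 2.4.6, scipy 1.17.1, pandas 2.3.3, matplotlib 3.10.9) as CPM with exact Poisson 95% intervals. Shares had exact binomial (Clopper-Pearson) intervals and ratios exact conditional binomial ones. With 1 library per suffix no test was run. A gene counted as higher or lower past 2-fold in both suffixes, among genes with at least 20 UMIs in the sets compared, and a 0 was set to 3 counts. The cDC, B cell and T cell sets held 0 Siglech UMIs and under 5 UMIs of C1q genes. cDCs and B cells held no Cd3e, and cDCs and T cells no Cd79a. The set of all other barcodes had none of these limits and included barcodes with Siglech that the rule left out. B cells were taken by Cd79a with a second B cell gene and include antibody-secreting cells.

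Named genes came from 28 lists, plus the 20 genes with the highest lower limit of the ratio to other barcodes and the 10 against cDCs (at least 50 CPM), and the 5 highest and 5 lowest between suffixes (at least 200 CPM). The members and lists were chosen with earlier results of these data known. Mx1, Mx2, Sting1 and Tasl were not among the symbols, and Ddit3, shared by 2 identifiers, was not used. Alternatives changed the UMI, mitochondrial, Siglech, C1q and Cd3e limits, the treatment of barcodes with other cell types' UMIs, of free RNA and of thinning, and the sum over cells. Some genes counted in the lists are not reported here by name.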

Additional observations from a re-analysis of the deposited data

How the results depend on the processing

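Over the alternatives, the number of pDCs ran from 121 to 158 in suffix 1 and from 94 to 130 in suffix 2. Tcf4 ran from 2985 to 4045 CPM and from 2482 to 3512 CPM, lowest with 1 UMI of Siglech allowed and highest without the pDCs rich in other cell types' genes, an alternative chosen after seeing the data. The 10 genes ranked highest against other barcodes stayed from 92.0 to 2601 times as high. With no limit on C1q or Cd3e, 1 identity gene passed 2-fold between suffixes in place of 0. The ratio of suffix 2 to suffix 1 for Jchain, 196 as reported, reversed to 0.474 when pDCs with UMIs of 6 genes of other types were left out and to 0.493 under the added limit. Of 708 values under alternatives, 513 stayed within counting error or 1.5 times and 193 moved. Levels in pDCs were less stable, as 137 stayed and 105 moved. All 8 shares of pDCs with a UMI moved when thinning was left out. No paired analysis was possible because the suffixes carry no replicate numbers and no test was run. Tlr9 and the interferon genes, with few or no UMIs, are not compared with other cells by name in the text. Having 1 library per suffix leaves the spread between animals unknown.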
